A study of Mus musculus with 7 samples.

Results

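The genes described here are 4 ErbB receptors (Egfr, Erbb2, Erbb3 and Erbb4) and 6 of their EGF-like ligands (Egf, Tgfa, Hbegf, Btc, Ereg and Nrg1), measured in mammary glands of mice with a transgene for PyV-MT, the middle T oncoprotein of polyoma virus. They were chosen by gene symbol. All 10 were represented on the array, by 21 of the 34945 probe sets that carried a single gene symbol, among 18193 genes in all. Every gland came from a virgin female mouse of the strain FVB/PyV-Mt, killed at 8 weeks of age. For the last 4 weeks they ate AIN93G control chow or the same kind of diet containing 1% CLA (conjugated linoleic acid, isomers of the dietary fatty acid with adjacent double bonds). There were 3 control and 4 CLA arrays, each of a sample described as a mouse. Recorded as placed on the diets were 5 mice for control chow and 6 for CLA. The oncogene was present in both groups, so the diets are compared only in oncogene-bearing glands. The promoter that drives it is not named in the labels.

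ErbB receptors are receptor tyrosine kinases that pair up when an EGF-like ligand binds and then signal through the Ras-ERK and PI3K-AKT routes. Egfr binds Egf, Tgfa, Hbegf, Btc and Ereg, while Erbb3 and Erbb4 bind neuregulins such as Nrg1. Erbb2 has no known ligand of its own, and Erbb3 has a weak kinase, so they act mainly as partners of other receptors. In the mammary gland Egfr of the stroma takes part in duct growth, and Erbb4 in the differentiation that precedes lactation. Middle T is itself not a kinase, but it recruits Src family kinases, Shc adaptors and PI3K, and so feeds into routes that ErbB receptors also use.

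The values are MAS5 signals, whose trimmed mean was 500.003 on each of the 7 arrays. The labelled tissue was borne out by its markers. All 14 luminal epithelial markers on the array lay above the filter on dim probe sets, with a summed signal of 99260 to 126069 in control and 104862 to 116572 in CLA glands. Several arrays also held transcripts of other tissues. The summed signal of 6 salivary gland markers ran from 807 to 111855 in control and from 178 to 148754 in CLA glands, with control replicate 3 and CLA replicate 4 highest. That of 10 skeletal muscle markers ran from 9500 to 95836 in control, highest on control replicate 2, and from 279 to 14426 in CLA glands. White adipocyte markers, 8 on the array, summed to 38583 to 48847 in control and 12764 to 31520 in CLA glands. All 10 muscle and all 8 adipocyte markers were lower in CLA glands at an unadjusted limma p under 0.05, as were 3.01% of all genes tested. At an adjusted p, 0 of them were. All CLA arrays lay below all control arrays for 0 of the muscle and 4 of the adipocyte markers, and for 2.67% of all genes. In bulk tissue, fewer cells of a type and less RNA per cell cannot be told apart. CLA replicate 3 had an Actb 3'/5' signal ratio of 2.78, against 1.41 to 1.88 on the other arrays. It also had the highest Krt10, a keratinocyte gene, at 1078 against 288 to 437. Of the other keratinocyte markers, Krt1, Flg and Ivl, all below the filter, were highest there too. Lor and Sbsn, above the filter, were not. Lor was 284 there against 293 on CLA replicate 4, and Sbsn 2768 against 3520 on control replicate 3. On their brightest probe sets, CLA replicate 3 was the highest array for Egfr and the lowest for Hbegf, Btc and Stat3. Other probe sets differed. Egfr 1451530_at was lowest there, at 122, and Hbegf 1418349_at was 133 there against 84.4 on control replicate 3. The part of RNA quality or skin transcripts there was not tested. Titles carry experiment numbers, and those of control replicate 1 and CLA replicate 1 start with 27, the others with 28. No source used here says what they stand for.

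None of the ErbB genes that could be tested passed the test for a difference between the diets. Of the 10 members, 7 had a mean signal at or above the filter of 57.7 (the 40th percentile of probe sets) on their brightest probe set, namely 3 receptors and 4 ligands. Erbb4, Ereg and Nrg1 lay below it. In limma's fit over 12497 genes, 0 of the 7 passed an adjusted p of 0.05, where the share of all genes called was 0%. Without adjustment, 0 members had a p under 0.05, against 5.39% of all genes (2.38% higher and 3.01% lower in CLA glands). In 0 of the 7 did the arrays of one diet lie wholly above those of the other, which occurred for 5.31% of all genes (2.64% with CLA higher and 2.67% with CLA lower). Signals were nominally higher in CLA glands for 3 members and lower for 4. The median log2 change of the members tested was -0.01, beside 0.03 over all genes. Tgfa, at 0.78, was the furthest from 0.

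**Figure D1:**
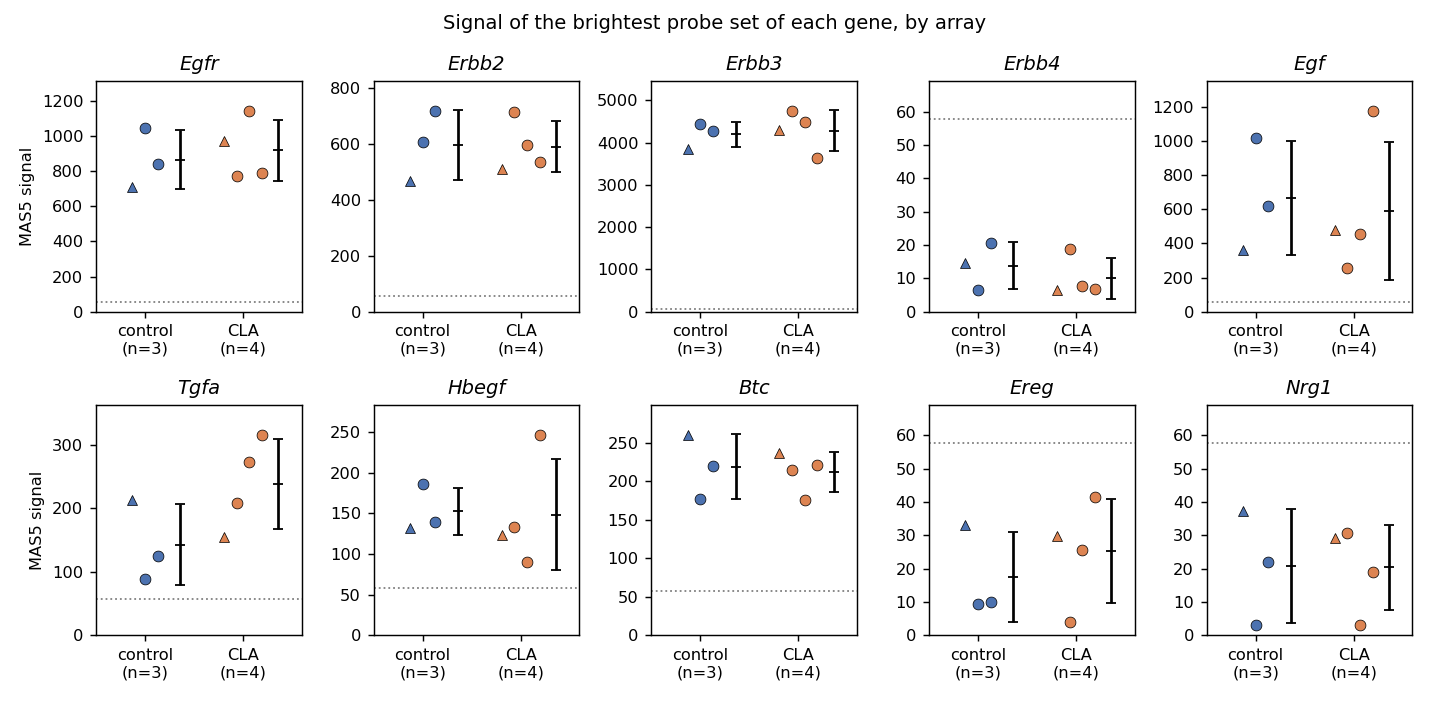
MAS5 signal (vertical axis, linear from 0) of the brightest probe set of each of the 10 genes on the 3 control (blue) and 4 CLA (orange) arrays. Triangles mark arrays with title numbers starting with 27, circles those starting with 28, bars the mean ± SD, and the dotted line the filter signal of 57.7. The groups overlap for every gene, and Erbb4, Ereg and Nrg1 lie under the dotted line on all arrays.

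Among the receptors, Erbb3, the partner with a weak kinase that binds neuregulins, was the steadiest member. Its signals, given in replicate order here and for every gene after it, were 3858, 4443 and 4280 in control and 4291, 4747, 4482 and 3630 in CLA glands. The highest and the lowest array were both CLA arrays, and they differed by 1.31-fold. The spread within groups, a residual SD of 0.15 on the log2 scale, was at the 12.0th percentile of all genes tested. The log2 change was 0.03 ± 0.13 (SE), with limma's unadjusted p at 0.839 and adjusted p at 0.999. The 95% interval reached from 1.2-fold lower to 1.25-fold higher, the narrowest of the members. A second probe set, 1452482_at, stayed between 3.73 and 36.6, below the filter, and was not tested. Averaged with it, the log2 change of Erbb3 was 0.55.

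Erbb2, the receptor without a ligand of its own that is amplified in many human breast cancers, did not pass the test either. Control arrays gave 469, 606 and 718, and CLA arrays 511, 714, 598 and 537. The lowest value of each diet was that of replicate 1, the pair with title numbers starting with 27. Erbb2 thus had a log2 change of -0.01 ± 0.20 (SE), with a limma adjusted p of 0.999 and a 95% interval from 1.37-fold lower to 1.35-fold higher. It was 0.12 between the arrays starting with 27 and -0.11 within those starting with 28, so its sign was not settled.

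Egfr, the receptor of Egf and Tgfa, was measured by 7 probe sets, more than any other member. On the brightest, 1435888_at, control arrays gave 711, 1045 and 842 and CLA arrays 971, 774, 1141 and 788. CLA replicate 3 was highest and control replicate 1 lowest, and the groups overlapped. For this probe set the log2 change was 0.08 ± 0.20 (SE), with a limma adjusted p of 0.997 and a 95% interval from 1.28-fold lower to 1.44-fold higher. The 27 arrays alone gave 0.45 and the 28 arrays alone -0.08. The mean of all Egfr probe sets was -0.23, but it includes 1457563_at, which lay below the filter and differed by -1.50.

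The other Egfr probe sets did not share an order of arrays. Probe set 1424932_at was highest on CLA replicate 3 (714) and lowest on CLA replicate 4 (420), while 1460420_a_at was highest on control replicate 2 (682) and lowest on control replicate 1 (505). Probe set 1451530_at peaked on CLA replicate 1, at 295, against 122 to 197 on the other CLA arrays. Their log2 changes were -0.11, -0.11 and 0.29. The dimmer 1432647_at and 1454313_at had -0.45 and 0.21. The former ran from 53.9 on CLA replicate 2 to 125 on CLA replicate 1. In a second limma fit over 22867 probe sets, adjusted p was between 0.990 and 0.998 for these 5, beside a share of 0% called among all probe sets. Counting those of Tgfa and Hbegf, 8 further member probe sets were tested, and 0 of them had an unadjusted p under 0.05 or groups that did not overlap. Of all probe sets, 4.9% reached that p (1.86% higher, 3.04% lower) and 5.42% had separate groups (2.2% higher, 3.22% lower). Probe set 1457563_at lay below the filter, from 4.28 to 36.6.

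Erbb4, the receptor of neuregulins and of Hbegf and Btc, had 1 probe set and low signal in both groups. Control arrays gave 14.5, 6.45 and 20.5, and CLA arrays 6.41, 18.9, 7.85 and 6.67. All 7 values lay below the filter, so no change is given, and a MAS5 signal this low does not show whether the transcript was present.

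Tgfa, an epithelial ligand of Egfr whose overexpression drives mammary tumours in mice, had the largest nominal change. On its brightest probe set, 1421943_at, control arrays gave 213, 89.2 and 125, and CLA arrays 155, 208, 273 and 315. All CLA arrays lay above control replicates 2 and 3, but control replicate 1 lay above CLA replicates 1 and 2, so the groups overlapped. The means were 143 ± 63.8 (SD, n = 3) under control chow and 238 ± 70.5 (SD, n = 4) under CLA. This was a log2 change of 0.78 ± 0.35 (SE), or 1.72-fold, with limma's unadjusted p at 0.0506 and adjusted p at 0.904. The 95% interval of the log2 change reached from -0.0025 to 1.57.

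The log2 change of Tgfa differed with the title numbers of the arrays compared. Within numbers starting with 28 it was 1.31 (limma adjusted p of 0.274). Between the arrays starting with 27 it was -0.46, from 1 array per diet. With the number as a block it was 0.79 (limma adjusted p of 0.684). Without control replicate 1 it was 1.12 (limma adjusted p of 0.253), and without control replicate 2 it was 0.49. Over the alternatives tried, adjusted p for Tgfa ran from 0.253 to 1.00. Beside it, basal and myoepithelial markers summed to 5461 to 8767 in control and 8722 to 11282 in CLA glands, with control replicate 2 lowest for both. The CLA arrays did not share an order. CLA replicate 3 had the lowest sum among them, 8722, with Tgfa at 273, and CLA replicate 1 had 9868 with Tgfa at 155. Of the 10 markers, 6 were nominally higher in CLA glands and 4 lower. Their part in the Tgfa difference was not tested.

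The other Tgfa probe sets gave no uniform picture. Probe set 1450421_at gave 77.5, 101 and 130 on control and 81.6, 174, 122 and 145 on CLA arrays, a log2 change of 0.32 ± 0.33 (SE). Probe set 1421942_s_at gave 57.7, 83.4 and 137 on control and 121, 77.6, 74.9 and 33.6 on CLA arrays, a log2 change of -0.32 ± 0.47. On CLA replicate 4 the brightest probe set was thus at its maximum and 1421942_s_at at its minimum. The suffix _s_at marks a probe set whose probes can match more than one transcript. As the mean of the 3 probe sets, the log2 change of Tgfa was 0.26, against 0.78 on the brightest one.

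**Figure D2:**
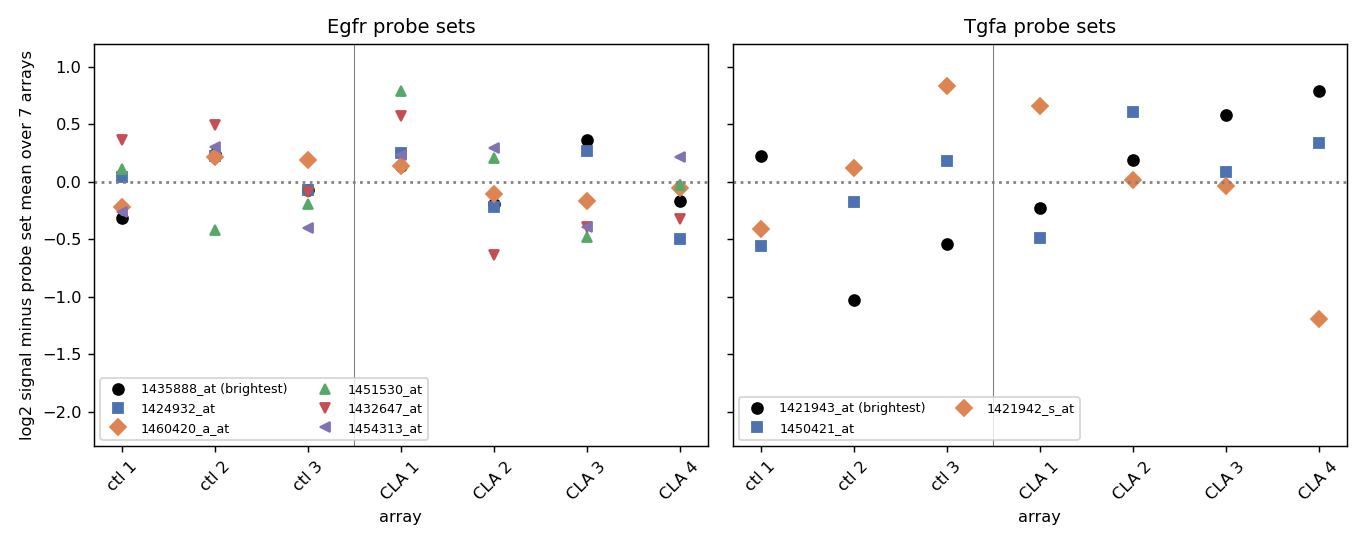
Log2 signal of each probe set minus its mean over the 7 arrays (vertical axis), for the 6 Egfr (left) and 3 Tgfa (right) probe sets above the filter, by array (horizontal axis, ctl for control). Symbols of 1 colour belong to 1 probe set, and the vertical line divides the diets. On CLA replicate 4 the brightest Tgfa probe set is highest while 1421942_s_at is lowest.

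Egf, the founding ligand of the family, varied most between arrays of the same diet among the 7 members tested. Control arrays gave 359, 1020 and 617, and CLA arrays 480, 254, 456 and 1176. The highest and the lowest array, 4.64-fold apart, were both CLA arrays, and the groups overlapped. The residual SD of 0.85 on the log2 scale was at the 96.8th percentile of all genes tested. Between the diets Egf had a log2 change of -0.27 ± 0.49 (SE), with a limma adjusted p of 0.997 and a 95% interval from 2.59-fold lower to 1.78-fold higher. The 27 arrays gave 0.42 and the 28 arrays -0.63. Its sign turned without control replicate 2 (0.10) or without CLA replicate 2 (0.06), and without CLA replicate 4 the change was -0.68.

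The mouse submandibular salivary gland is known as a rich source of Egf, and salivary transcripts differed between these arrays. The 3 arrays with the highest Egf, namely CLA replicate 4 and control replicates 2 and 3, were also those with the highest summed salivary signal, at 148754, 22116 and 111855. On control replicate 2 the sum was almost all Pip, with Amy1 at 627 and Dcpp1 at 27.1. On the other arrays that sum was 178 to 1935. The amylase gene Amy1 gave 47911 on CLA replicate 4 and 37245 on control replicate 3, against 43.5 to 695 elsewhere, and on control replicate 2 it was below control replicate 1. Pip, a secreted protein of exocrine glands, gave 36780, 20535 and 28530 on CLA replicate 4 and control replicates 2 and 3, against 13.8 to 718 on the others. Smgc, a submandibular mucin gene, stayed between 4.48 and 33.3, below the filter on every array. Prol1 was higher on CLA replicate 1 (807) than on control replicates 2 and 3 (545 and 343), which Egf was not, and Egf was higher on control replicate 2 than on control replicate 3. Without control replicate 3 and CLA replicate 4 the log2 change of Egf was -0.67, with a limma adjusted p of 1.00. The part of salivary transcripts in the spread of Egf was not tested.

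**Figure D3:**
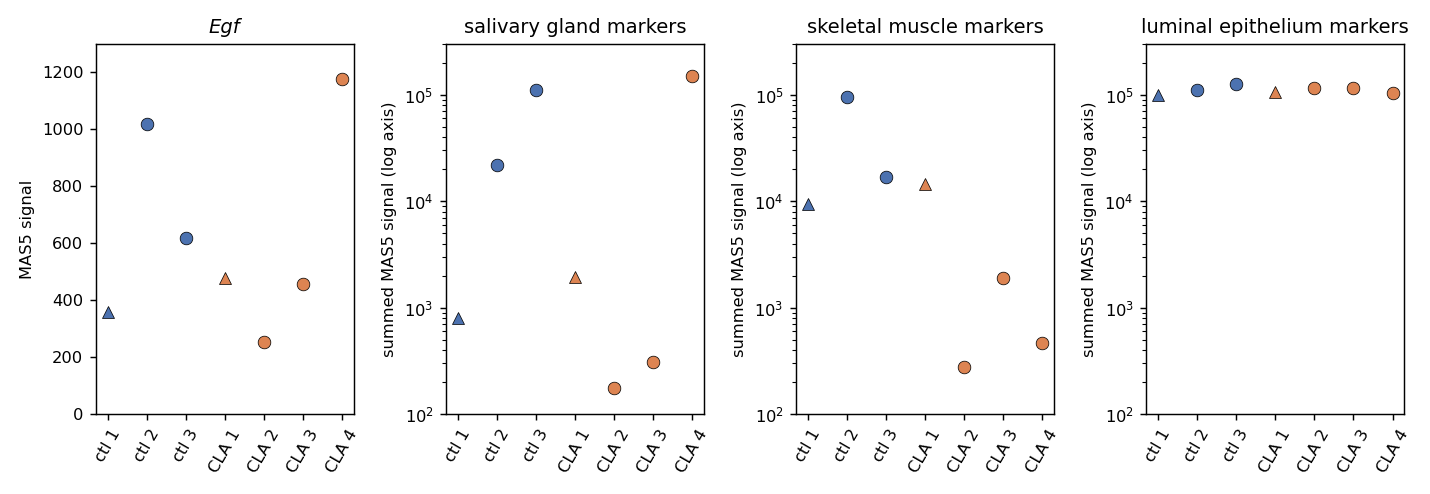
MAS5 signal of Egf (left, linear axis) and summed MAS5 signal of salivary gland, skeletal muscle and luminal epithelial markers (log axes) on each array (ctl for control, blue; CLA, orange; triangles, title numbers starting with 27). Egf and the salivary sum are highest on CLA replicate 4 and control replicates 2 and 3, while the luminal sum stays between 99260 and 126069.

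Hbegf, a ligand shed from the membrane by metalloproteases, did not pass the test either. On 1418350_at control arrays gave 132, 186 and 139, and CLA arrays 123, 133, 90.8 and 246. CLA replicate 4 was highest and CLA replicate 3 lowest, so the CLA arrays spanned the control range. Its log2 change was -0.12 ± 0.34 (SE), with a limma adjusted p of 0.997 and a 95% interval from 1.85-fold lower to 1.57-fold higher. The second probe set, 1418349_at, had 134, 158 and 84.4 on control and 152, 112, 133 and 122 on CLA arrays, a log2 change of 0.09 ± 0.28. Neither sign was settled: the change on 1418350_at was 0.08 without CLA replicate 3 and 0.03 without control replicate 2, and without control replicate 3 that on 1418349_at was -0.17.

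Btc, betacellulin, which binds both Egfr and Erbb4, was the steadiest ligand. Its brightest probe set gave 260, 176 and 220 on control and 237, 214, 175 and 221 on CLA arrays. Control replicate 1 was highest and CLA replicate 3 lowest, and the log2 change was -0.04 ± 0.22 (SE), with a limma adjusted p of 0.999 and a 95% interval from 1.44-fold lower to 1.37-fold higher. Its sign turned with quantile normalization (0.01) and median centring (0.04). Probe set 1421161_at, from 20.5 to 101, had a mean below the filter.

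Ereg, epiregulin, and Nrg1, the neuregulin that signals through Erbb3 and Erbb4, were dim on every array. Ereg gave 33.2, 9.53 and 10.1 on control and 29.9, 4.07, 25.6 and 41.7 on CLA arrays. Nrg1 gave 37.5, 3.04 and 22.0 on control and 29.1, 30.9, 3.005 and 19.0 on CLA arrays. Arrays of each diet reached both high and low values. No fold between the diets is given at this signal.

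**Figure D4:**
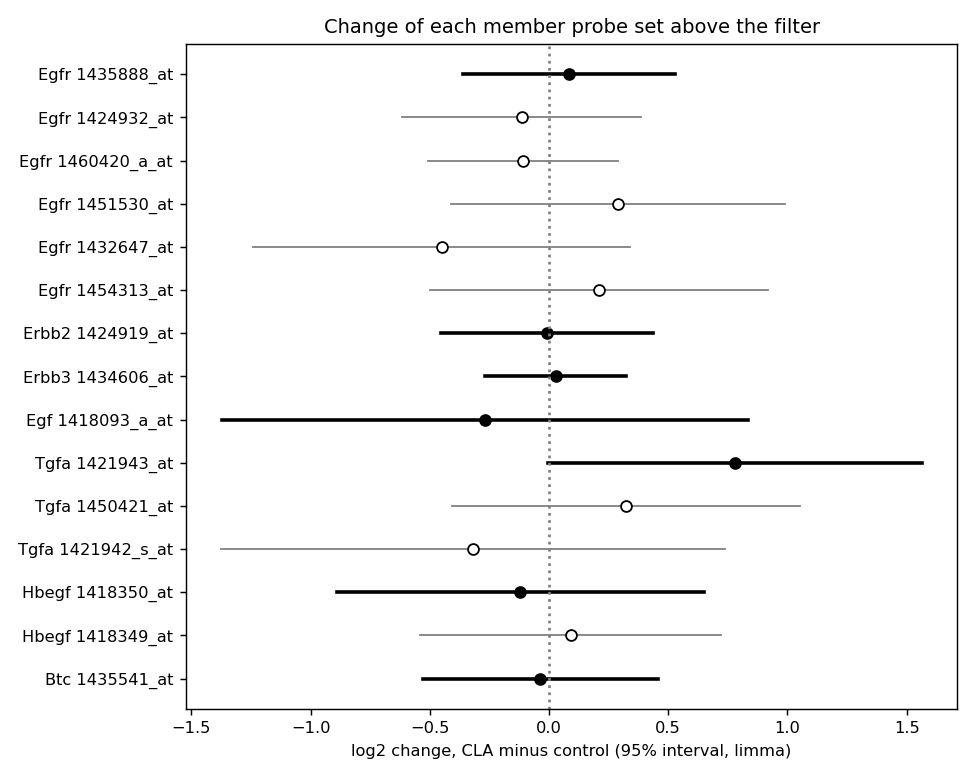
Log2 change, CLA minus control (horizontal axis), with limma's 95% interval, for the 15 member probe sets above the filter. Filled points with thick lines are each gene's brightest probe set (fit over 12497 genes), and open points are the others (fit over 22867 probe sets). Each interval includes 0, with that of Tgfa 1421943_at just reaching it and that of Erbb3 the narrowest.

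Of 5 further EGF-like ligands listed for the pathway, 3 were tested, and 1 of them, Nrg4, stood apart from the members by having groups that did not overlap. Nrg4 encodes an Erbb4 ligand known from brown fat. Control arrays gave 293.5, 129 and 102, and CLA arrays 65.0, 87.2, 72.1 and 88.2. All CLA arrays lay below all control arrays, which was so for 2.67% of all genes tested. The log2 change was -1.02 ± 0.37 (SE), 2.02-fold lower, with limma's unadjusted p at 0.0227, a level that 3.01% of all genes reached in this direction. The limma adjusted p was 0.855, so Nrg4 did not pass. Without control replicate 1 the change was -0.56, and the 27 and 28 arrays gave -2.18 and -0.48. Nrg4 had a limma unadjusted p under 0.05 in 15 of 18 alternatives tested. Without control replicate 1 that p was 0.117, and within the 28 arrays 0.194. Averaged over its probe sets, Nrg4 lay below the filter and was not tested. White adipocyte markers, all 8 of those on the array, were lower in CLA glands as well, in sums that did not overlap between the diets, and their part in the Nrg4 difference was not tested.

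Nrg2 had a log2 change of -0.39 ± 0.33 (SE) and Epgn, epigen, one of 0.13 ± 0.32. Nrg2 was high on control replicate 1 and CLA replicate 1, at 208 and 210, and between 102 and 180 elsewhere. With each array left out, the change of Nrg2 ran from -0.63 (without control replicate 3 or without CLA replicate 1) to -0.21 (without control replicate 1). Nrg3 lay below the filter, from 4.15 to 66.9, and Areg was not analysed here.

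Ligands are released by membrane proteases, and 8 genes for this step and for ligand trafficking were tested. In this list 0 passed at an adjusted or an unadjusted p of 0.05, where 5.39% of all genes reached the latter, with a median log2 change of 0.09 beside 0.03 over all genes. Of 20 alternatives, 2 gave 1 gene at an unadjusted p under 0.05, namely Adam12 with the mean of probe sets (0.68) and without CLA replicate 2 (0.65). The 4 of smallest p were Adam12 (0.45 ± 0.29 SE), Adam17 (0.21 ± 0.15), which sheds Tgfa and Hbegf, its partner Rhbdf1 (0.15 ± 0.14) and the cargo receptor gene Cnih1 (0.19 ± 0.13). Adam17 gave 1831, 1609 and 1676 on control and 1936, 2191, 2184 and 1606 on CLA arrays, so that CLA replicate 4 lay below all controls and the other CLA arrays above them.

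Feedback inhibitors and genes of receptor turnover had 0 of 16 tested past either threshold (5.39% of all genes without adjustment) and a median of 0.03. Lrig1, which lowers ErbB receptor levels, had -0.21 ± 0.17 (SE), the ubiquitin ligase genes Cbl and Cblc 0.14 ± 0.14 and 0.16 ± 0.27, and Spry4, an inhibitor induced by ERK, 0.22 ± 0.27. Lrig1 was 964 on control replicate 2 and between 626 and 692 on all other arrays. Without that array its change was -0.04. Spry4 was 0.03 without CLA replicate 4, its highest array, and Cblc turned to -0.12 without control replicate 1.

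Adaptors and relay genes likewise had 0 of 32 tested past either threshold, against 5.39% of all genes without adjustment, with a median of 0.01. Under 6 of 20 alternatives 1 gene of the list had an unadjusted p under 0.05. Stat5a, a transcription factor of the mammary response to prolactin and to Erbb4, was the 1 gene of this list with separate groups, at 2482, 2266 and 2751 on control and 1944, 2253, 1900 and 2151 on CLA arrays. Such a count, 1 of 32, is near the 2.67% of all genes that were lower with separate groups. The nearest arrays of the diets, 2266 and 2253, were almost level. Its log2 change was -0.28 ± 0.13 (SE), with a limma adjusted p of 0.904. Stat3 had -0.46 ± 0.24, Pik3r2, a regulatory subunit of PI3K, 0.40 ± 0.30, and Akt1 0.25 ± 0.19, which as the mean of its probe sets was -0.02. Single arrays moved these values: Pik3r2 ran from 0.12 without control replicate 1 to 0.63 without CLA replicate 1, Stat3 was -0.25 without CLA replicate 3, and Akt1 was 0.13 without CLA replicate 4.

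Genes that ERK signalling is known to induce also showed no change past the test, with 0 of 17 past either threshold, against 5.39% of all genes without adjustment. The median was -0.12, but 0.079 without control replicate 2 and 0.028 without the filter on dim genes. Under 5 of 20 alternatives 1 gene had an unadjusted p under 0.05. Jun was the 1 gene tested with separate groups, from 2536 to 2741 in control and from 2769 to 3313 in CLA glands. Its log2 change was 0.19 ± 0.12 (SE), with a limma adjusted p of 0.937. Over all genes tested 2.64% were higher with separate groups, so 1 of 17 is no result about the list. Etv4, whose mean lay below the filter, was not tested. Its signals were 25.7, 15.7 and 25.2 on control and 31.8, 134, 80.1 and 122 on CLA arrays. They did not overlap, but the share of such genes below the filter was not counted. Fosl1 and Spred3 of the same list, likewise below the filter, had groups that overlapped. Egr2, an immediate early transcription factor, had 0.63 ± 0.37, Myc 0.24 ± 0.17 and Ier2 0.25 ± 0.19. Egr2 was 101 on control replicate 3 and 161 on CLA replicate 2, with the other arrays between 203 and 339. Its change was 0.24 without control replicate 3, and averaging its probe sets gave 0.12. Myc was 0.12 without CLA replicate 4, and Ier2 ran from 0.16 to 0.40 with each array left out, highest without CLA replicate 1.

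**Figure D5:**
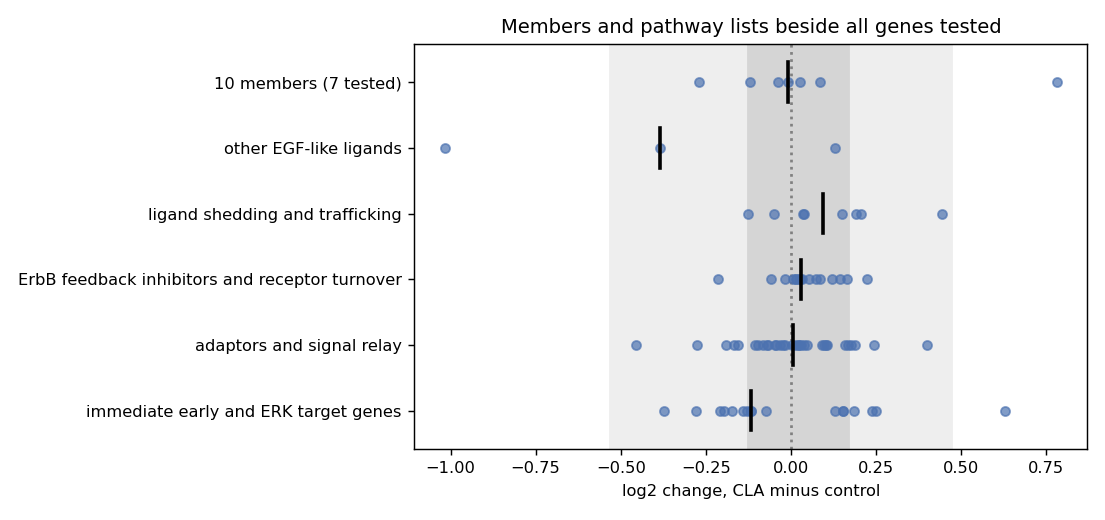
Log2 change, CLA minus control (horizontal axis), of the 7 members tested and of the tested genes of 5 pathway lists. Points are genes, black bars list medians, and the grey bands hold the middle 50% (dark) and 90% (light) of all 12497 genes, from -0.53 to 0.47. Tgfa, Nrg4 and Egr2 (0.24 without control replicate 3) lie outside the light band, and list medians run from -0.39 (3 ligands) to 0.09.

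The genes whose log2 signal followed each member most closely over the 7 arrays differed from member to member. By Pearson's r they were Serpinb9 (0.99), Slco1a5 and Paqr3 for Egfr, Hdac5 (0.99), Tsc2 and Nr2f6 for Erbb2, and Fbxo10 (0.99), Apeh and Sema6a for Erbb3. For Egf they were Bhlha15 (0.99), a transcription factor of secretory gland cells, Lmo2 and Gdf5. For Tgfa they were Gtf2f2, Sh3pxd2a and Fancf, for Hbegf Wipi1, Mcrip2 and Gata1, and for Btc Ate1, Fyttd1 and Marchf6. These are the highest of 11993 genes searched, the arrays share their scaling, and with 7 points between 29 and 111 genes exceeded an r of 0.9 for each member, so the values describe likeness on these arrays alone.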

How the data were processed

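Each array received biotin-labelled total RNA of 1 gland sample (1 colour, Affymetrix), per the labels' protocols. The deposited values are linear MAS5 intensity values; the submitters' processing notes name MAS5. Its version, the genome build and the annotation: not given in the sources used here. The trimmed mean (2% at each end) was 500.003 on every array, so the intensity values were used as deposited, and each change is relative to the rest of a gland's transcripts.

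Groups came from the diet in the labels. Nothing but the description of each sample as a mouse says that replicates are separate animals. Log2 was taken with signals under 1 raised to 1. Control probe sets (64 of 45101) and those with several symbols (932) or none (9160) were left out. Symbols were updated by Entrez identifier through a RefSeq table of GRCm38.p6 for 34741 probe sets. A gene was represented by its probe set of highest mean log2 signal. Limma 3.58.1 in R 4.3.3 (lmFit, eBayes with trend, two-sided) was fitted to 12497 genes and, for the other probe sets, to 22867 probe sets, with Benjamini-Hochberg adjustment over all of them. The fit was tested on simulated data. Figures used matplotlib 3.10.9.

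The members, lists and tests were chosen with earlier results of these data known. Named genes were all members, the 4 genes of smallest p in each list and the 3 genes most like each member. The tested list genes with separate groups (Nrg4, Stat5a, Jun) fell within this rule. Salivary genes, Etv4, Fosl1 and Spred3 were named after their values were seen. Alternatives were quantile normalization, median centring, cyclic loess, adding 16 or 64 before log2, averaging all probe sets per gene, filters at the 60th percentile or none, eBayes with robust fitting or without trend, the title number as a block, title numbers starting with 27 or 28 alone, and each array left out. Leaving out control replicate 3 and CLA replicate 4 together was added after seeing the data.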

Additional observations from a re-analysis of the deposited data

Results flagged for a closer look

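Among 40 probe sets of members and named pathway genes, 2 had a CLA array that stood far from the others of its group by Dixon's gap ratio on the log2 scale, above its 95% critical value. Chance flags about 1 in 20 groups. Egfr probe set 1454313_at was lowest on CLA replicate 3, at 61.0, where the rest of the CLA group had 93.0 to 97.9, a ratio of 0.892. Nrg2 was highest on CLA replicate 1, at 210, where the rest of the CLA group had 102 to 111, a ratio of 0.879.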

How the results depend on the processing

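No member passed an adjusted p of 0.05 under any alternative tested, and neither did any gene of the pathway lists. The number of genes called over the whole array was 0 in the fit reported, 1 within title numbers starting with 28, 24 without control replicate 3 and CLA replicate 4, and 0 to 17 with each array left out, with 17 without CLA replicate 4 and 2 without control replicate 1. Of the members, only Tgfa kept its sign under all alternatives with a test (0.26 to 1.31), with an unadjusted p under 0.05 in 7 of 19. With each array left out, log2 changes ran from -0.049 to 0.23 for Egfr, -0.17 to 0.14 for Erbb2, -0.031 to 0.11 for Erbb3, -0.68 to 0.10 for Egf, -0.40 to 0.081 for Hbegf, -0.18 to 0.10 for Btc, -0.11 to 0.26 for Epgn and -0.12 to 0.40 for Cblc. They ran from -0.22 to 0.036 for Egfr probe set 1424932_at, -0.62 to 0.031 for Tgfa 1421942_s_at and -0.17 to 0.28 for Hbegf 1418349_at. The sign also turned for the log2 change of Btc with quantile normalization (0.0069), median centring (0.043), the mean of probe sets (0.26) and title numbers starting with 28 (0.039), and for Erbb2 with median centring (0.073). The mean of probe sets moved Erbb3 to 0.55. The means for Btc, Egfr and Erbb3 include probe sets below the filter. The mean of probe sets turned Egfr (-0.23) and Akt1 (-0.019), and title numbers starting with 28 turned Egfr (-0.082), Erbb3 (-0.034) and Cblc (-0.0030). Without control replicate 3 and CLA replicate 4, Erbb2 was 0.18, Tgfa 1421942_s_at 0.36 and Hbegf 1418349_at -0.14. The cause was not tested. The number of arrays limits the precision, as the intervals show. No paired analysis was possible because the labels give no replicate numbers shared between the diets.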
